A study of Arabidopsis thaliana with 12 samples.

Results

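The loci described here are those that the deposited expression tables place on the mitochondrial chromosome of *Arabidopsis thaliana*. They were taken as every locus whose position begins with Mt, which gave 141 of the 33349 loci, and the 28 that reached 1 FPKM or more in at least 1 of the 4 conditions were described in detail. FPKM is the number of sequenced fragments per kilobase of a transcript and per unit of mapped fragments, so levels of loci of different length are on 1 scale. The choice used the chromosome and this minimum and no difference between conditions. The 4 conditions were Col-0 wild-type (WT) and the T-DNA insertion mutant *sig2-2*, both in the Col-0 background, as entire seedlings aged 1 day or 7 days and kept in constant red (Rc) light of 50 μmol m−2 s−1 on medium with sucrose. Each condition had 3 biological replicates, 12 samples in all, and *sig2-2* is a single insertion line. The deposited tables hold 1 value per locus and condition that combines the 3 replicates. No replicate error, interval or test can therefore stand beside any value below, and no difference can be set against the spread between replicates. The 141 mitochondrial and 130 plastid loci have values only in the tables of single conditions.

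Plant mitochondria keep a genome of their own. It encodes 3 ribosomal RNAs, some transfer RNAs, a part of the subunits of the respiratory complexes and of the ATP synthase, several ribosomal proteins, proteins that mature cytochrome c, and many open reading frames with no known function. Most respiratory subunits, and the phage-type RNA polymerases that transcribe this genome, are encoded in the nucleus and imported. SIG2, in contrast, is a nuclear-encoded sigma factor of the bacterial-type polymerase of the plastid, a polymerase that mitochondria lack. Stable plant mitochondrial RNAs carry no poly(A) tail, and a tail added there marks an RNA for decay. The libraries were made with an mRNA kit, and kits of this kind select poly(A) RNA, so that the values below are of what such a selection left.

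In the nuclear genome of Arabidopsis, chromosome 2 carries a large insertion of mitochondrial DNA. Of all stretches of 55 nt (words) in the mitochondrial genome of TAIR10.1, 70.0% also occurred on chromosome 2 and 0.287% in the plastid genome. The sequences that follow show what this means for a read. For *rps12* (listed as *RPSL2*), which encodes a protein of the small mitochondrial ribosomal subunit, and for *cob*, which encodes apocytochrome b of complex III, the first 75 coding bases of the mitochondrial gene and of the chromosome 2 copy are given. For *nad9*, a subunit of complex I, no copy on chromosome 2 was found. The capitals mark the first word of 55 bases.
rps12 (Mt:288446-288520, plus strand): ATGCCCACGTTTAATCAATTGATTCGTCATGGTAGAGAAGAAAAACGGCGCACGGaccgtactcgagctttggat
rps12 copy (chr2:3270410-3270484, plus strand): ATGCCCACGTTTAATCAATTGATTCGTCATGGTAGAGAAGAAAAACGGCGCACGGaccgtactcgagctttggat
cob (Mt:182784-182858, minus strand): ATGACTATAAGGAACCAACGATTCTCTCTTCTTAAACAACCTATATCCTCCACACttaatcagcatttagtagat
cob copy (chr2:3450863-3450937, plus strand): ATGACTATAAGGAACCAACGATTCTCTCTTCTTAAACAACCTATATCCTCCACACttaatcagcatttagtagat
nad9 (Mt:24665-24739, plus strand): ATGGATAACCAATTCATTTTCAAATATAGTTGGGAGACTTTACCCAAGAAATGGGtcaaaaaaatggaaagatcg
Sequences are from RefSeq, assembly TAIR10.1, with its coordinates. The pairs of *rps12* and of *cob* differed at 0 of the 75 bases, so that a read from these bases could be placed on either chromosome. A word of *nad9* occurred once in the genome. The mitochondrial positions in the deposited tables end at 366700, whereas the TAIR10.1 mitochondrial chromosome holds 367808 bases in another arrangement, and the 2 sets of mitochondrial coordinates were not mixed.

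At the level of the whole tables, the summed FPKM was between 1006579 and 1439004. The targeted gene, *SIG2*, was listed at 66.5 (WT) and 1.31 FPKM (*sig2-2*) at 1 day, and at 87.7 and 1.49 at 7 days, as the genotype labels say. The 7 seed reserve genes examined (*SESA1* to *SESA4*, *CRA1*, *CRU2* and *CRU3*) summed at 1 day to 18.1 FPKM for WT and 156 FPKM for *sig2-2*, and at 7 days to 0.320 and 2.93. All 7 were higher in *sig2-2* at both ages, and 6 of them were listed at 0 in WT at 7 days. The 4 green tissue genes (*RBCS1A*, *CAB2*, *LHCB3* and *PSAL*) summed to 2007 and 3224 FPKM at 1 day and to 32561 and 27886 at 7 days, for WT and *sig2-2*. The green sum is largely *RBCS1A*, at 22628 and 17384 FPKM at 7 days. *CAB2* went the other way at that age, at 4303 for WT and 5953 for *sig2-2*. Thus the RNA of these seed reserve and green tissue genes differed between ages and between genotypes. At 7 days the seed reserve values were low, and the green tissue genes differed between genotypes in mixed directions. Seed reserves and greening themselves were not measured here. The part of these differences in the mitochondrial values was not tested. In such bulk RNA, fewer cells of a type and less RNA per cell cannot be told apart.

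Most of the mitochondrial loci were near the bottom of the scale. Of the 141, 83 were listed at 0 in all 4 conditions and 30 more were above 0 but under 1 FPKM everywhere. The number at 1 FPKM or more at 1 day was 24 for WT and 23 for *sig2-2*, and at 7 days 8 for WT and 16 for *sig2-2*. The 28 loci were 3 rRNA loci of 3, 8 loci of complex I of 14, 2 of complex IV of 3, 3 of the ATP synthase of 6, 1 of the 6 for ribosomal proteins, 10 open reading frames of 81 and 1 tRNA locus of 20. Only 8 of the 28 were at 1 FPKM or more in all 4 conditions. The other 20 passed the minimum through some conditions only, mostly at 1 day, so that counts and medians over the 28 describe the loci with a value and are not a test of a change. None of the loci for complex III, cytochrome c maturation, the maturase *matR* or the transport protein *mttB* was among them. The 28 loci together held, of the summed FPKM, 0.107% (WT) and 0.0765% (*sig2-2*) at 1 day, and 0.0191% and 0.0327% at 7 days.

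**Figure D1:**
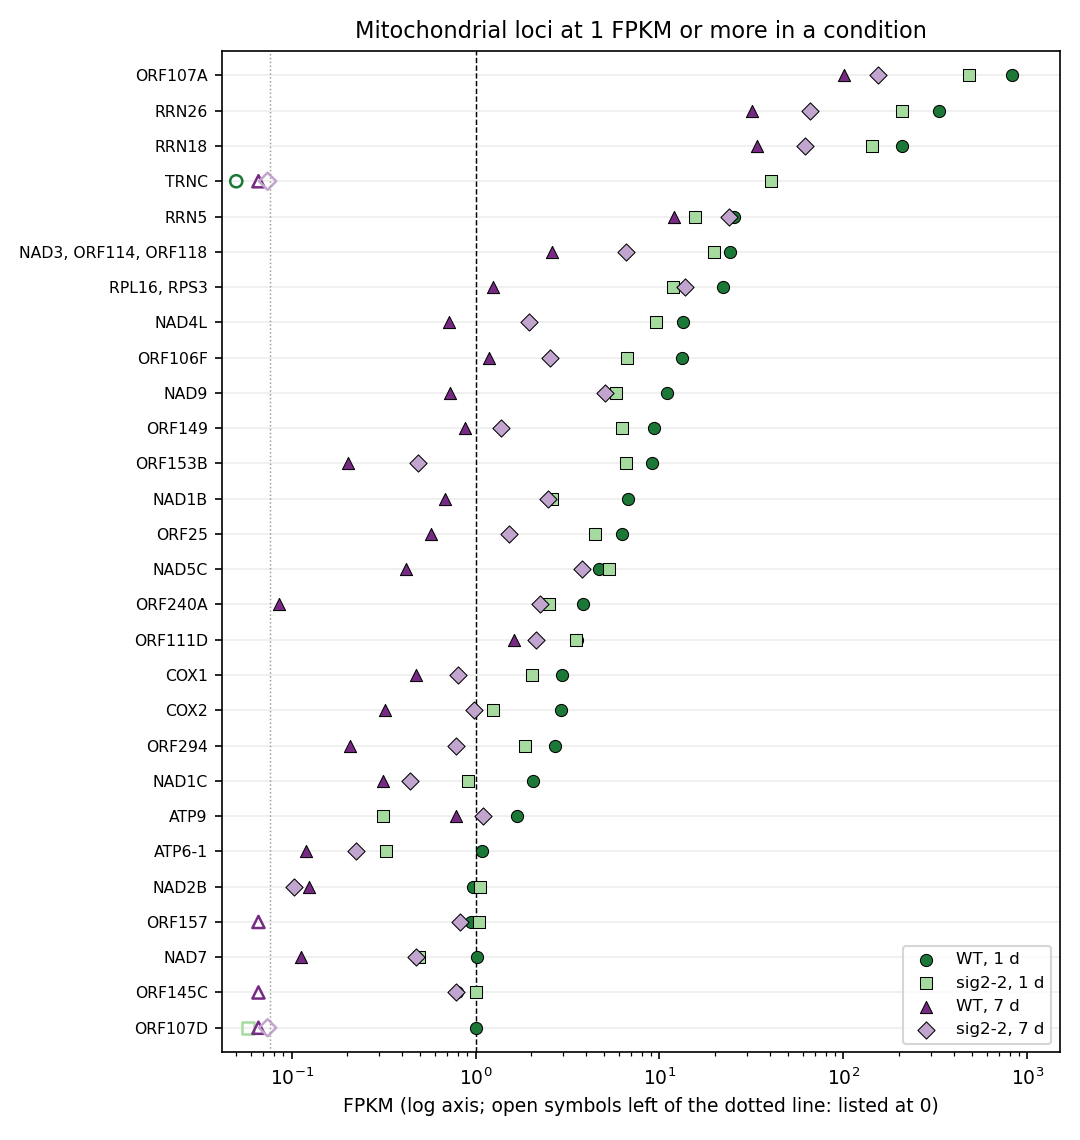
FPKM (log axis) of the 28 mitochondrial loci at 1 FPKM or more in a condition, 1 combined value per locus and condition, with open symbols left of the dotted line for values listed at 0. For 19 of the 28 loci the order was WT at 1 day, *sig2-2* at 1 day, *sig2-2* at 7 days and WT at 7 days, from high to low.

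Which mitochondrial genes had a value above 1 FPKM went along with how much of their sequence is found only once. Of 40 named genes matched to TAIR10.1, 39 hold at least 1 word of 55 nt, and these 39 fell into a group of 12 with 75.3% or more of their words unique and a group of 27 with at most 29.0% unique. In the first group 11 of 12 reached 1 FPKM, and in the second 6 of 27, with 12 of the 27 listed at 0 in every condition. The median of the highest value was 8.91 FPKM in the first group and 0.0890 in the second. This is a description across genes, which share the libraries, and not a test. *CCB206* (*ccmB*, for cytochrome c maturation) was the gene of the unique group under 1 FPKM, with a highest value of 0.457.

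**Figure D2:**
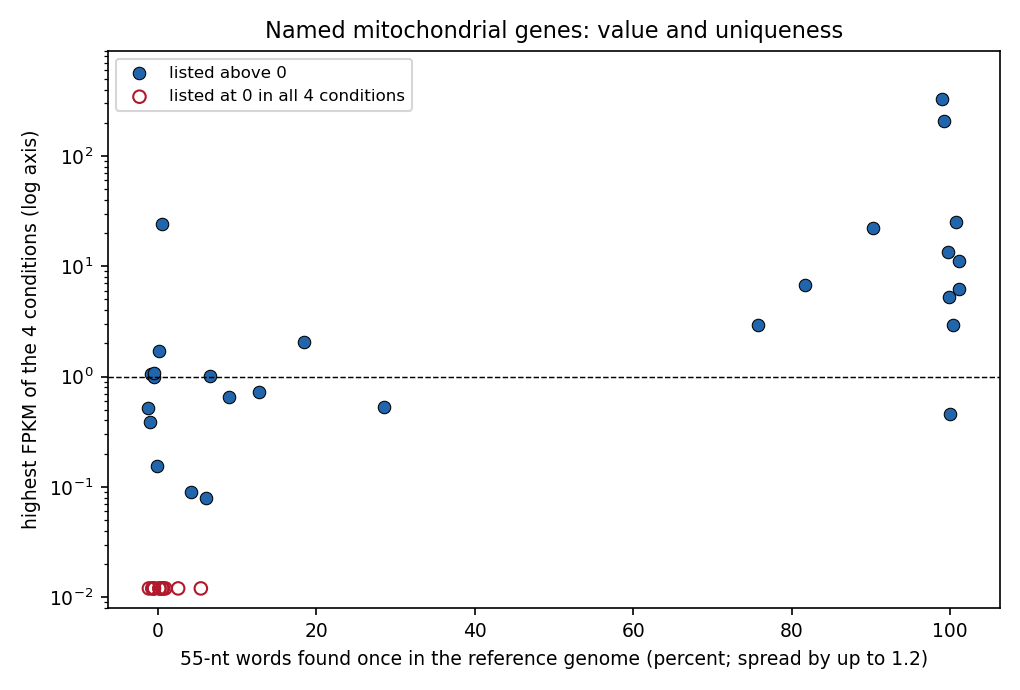
Highest FPKM of the 4 conditions (log axis) against the percent of 55-nt words found once in TAIR10.1, for 39 named mitochondrial genes, with open circles for genes listed at 0 in all 4 conditions. The dashed line is at 1 FPKM, which 11 of the 12 genes at the right and 6 of the 27 at the left reached.

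For most genes at the left of that plot, the higher value stood on chromosome 2. Of 27 mitochondrial genes with 50% or more of their words in 1 locus of chromosome 2, the nuclear locus had the higher value for 25. It reached 1 FPKM for 24, including 9 of the 12 whose mitochondrial locus was listed at 0. Among these 9, *NAD1A* and *RPS7* share a nuclear locus. The nuclear locus taken for *CCB452*, AT2G07756, was at 0 except in *sig2-2* at 7 days. *COB* was at 0 in every condition, and the chromosome 2 locus with all of its words, AT2G07727, had 4.13 FPKM for WT and 2.63 for *sig2-2* at 1 day, and 0.264 and 1.14 at 7 days. *RPSL2* was at 0 in every condition, and its copy AT2G07675 was at 22.5, 23.1, 5.28 and 8.96 FPKM, for WT then *sig2-2* at 1 day and for WT then *sig2-2* at 7 days. The values of both genes thus stood under the nuclear locus only. *RPL5*, for a protein of the large ribosomal subunit, was also at 0, and the chromosome 2 locus that carries its identifier was at 37.2, 22.4, 2.30 and 10.4 FPKM in the same order. *ATP1*, for the alpha subunit of the ATP synthase, had at most 0.514 FPKM, against 9.10, 4.92, 0.884 and 2.38 at AT2G07698. Whether a read from such a gene came from the mitochondrion or from the nuclear copy cannot be told apart. For *CCB256*, *CCB382* and *ORFX* (*mttB*), also at 0, the nuclear locus had at most 0.365, 0.585 and 0.531 FPKM. Whether a 0 for a mitochondrial locus reflects the placing of reads or little RNA was not tested. *NAD3,ORF114,ORF118*, which joins the complex I gene *nad3* to 2 open reading frames, was the exception with a high value (24.3 FPKM in WT at 1 day) at 0% unique words of *nad3*.

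The highest mitochondrial locus in every condition was listed as the open reading frame *ORF107A*, with 823 FPKM for WT and 482 for *sig2-2* at 1 day, and with 100.4 and 153 at 7 days. It lies 502 bases from the end of *RRN26*, the large ribosomal RNA, in the positions of the tables. In the TAIR10.1 mitochondrial genome, of 6 open reading frames with the same 324 bases, 1 lay within 1500 bases of *rrn26*, and its first 185 bases overlapped that RNA on the opposite strand. The match is by length and place, since the tables give no sequence. *RRN26* spans 2568 bases in the deposited positions, whereas *rrn26* has 3169 in TAIR10.1. Whether *ORF107A* as deposited lies within the ribosomal RNA was not tested. The overlap is in capitals.
ORF107A candidate (Mt:143781-144005, plus strand): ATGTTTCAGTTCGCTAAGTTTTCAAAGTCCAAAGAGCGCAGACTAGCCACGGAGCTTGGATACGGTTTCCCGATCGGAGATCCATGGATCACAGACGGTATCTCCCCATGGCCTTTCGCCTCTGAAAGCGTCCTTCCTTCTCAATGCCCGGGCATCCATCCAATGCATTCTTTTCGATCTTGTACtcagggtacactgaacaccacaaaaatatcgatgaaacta
The sources used here do not state that the libraries kept the strand, and without it reads of the ribosomal RNA and of an open reading frame on its other strand cannot be told apart. The ratio of *ORF107A* to *RRN26* was 2.49 and 2.31 at 1 day and 3.14 and 2.34 at 7 days, for WT and *sig2-2*.

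The ribosomal RNA loci, *RRN26* and *RRN18* foremost, were also high. At 1 day *RRN26* was at 331 FPKM for WT and 208 for *sig2-2*, and at 7 days at 32.0 and 65.5. *RRN18*, the RNA of the small subunit, was at 208 and 143 FPKM at 1 day and 34.1 and 62.2 at 7 days. *RRN5*, the 5S RNA of the large subunit and the shortest of them, was at 25.5 and 15.6 FPKM at 1 day and 12.0 and 23.9 at 7 days. All 3 had their lower value at 1 day in *sig2-2* and at 7 days in WT. *RRN26* was 1.59-fold lower in *sig2-2* at 1 day and 2.05-fold higher at 7 days, *RRN18* was 1.46-fold lower and 1.82-fold higher, and *RRN5* 1.63-fold lower and 2.00-fold higher, as plain ratios of FPKM. *RRN5* departed from the others in its course with age, since it was 2.13-fold lower at 7 days than at 1 day in WT, where *RRN26* was 10.3-fold and *RRN18* 6.11-fold lower. The *RRN5* locus spans only 118 bases, and the FPKM of so short an RNA is hard to estimate. The 3 rRNA loci and *ORF107A* held between 85.2% and 92.6% of the summed mitochondrial FPKM in each condition.

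The 18S ribosomal RNA of the cytosol, encoded in the nucleus, had the same order of conditions as *RRN26* and *RRN18*. Ribosomal RNA of both kinds is not polyadenylated as messenger RNA is, and a poly(A) selection removes most of it. The 18S locus AT2G01010 had 6763 FPKM for WT and 4907 for *sig2-2* at 1 day, and 941 and 1994 at 7 days. The 18S locus AT3G41768 was at 11766 and 8510 at 1 day and 1398 and 2888 at 7 days. AT2G01021, annotated as protein-coding and the highest of all loci, lies beside the rRNA genes of chromosome 2 and was at 466704 and 328097 at 1 day and 54754 and 121352 at 7 days. The loci of 5.8S rRNA differed from this at 1 day, when both were higher in *sig2-2*. AT2G01020 was at 5580 and 6068 FPKM at 1 day and 1374 and 2722 at 7 days, and AT3G41979 at 8576 and 8904, then 1960 and 3880. The summed 18S value was 1.38-fold lower in *sig2-2* at 1 day and 2.09-fold higher at 7 days, and 7.92-fold lower at 7 days than at 1 day in WT. Per 1000 FPKM of 18S, *RRN26* was at 17.8 (WT) and 15.5 (*sig2-2*) at 1 day and at 13.7 and 13.4 at 7 days, and *RRN18* at 11.2, 10.7, 14.6 and 12.7 in the same order. Relative to cytosolic 18S, these RNAs thus differed between genotypes by far less than their own FPKM did. Whether the course of the mitochondrial values reflects the cells or the share of ribosomal RNA that passed the mRNA preparation was not tested.

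**Figure D3:**
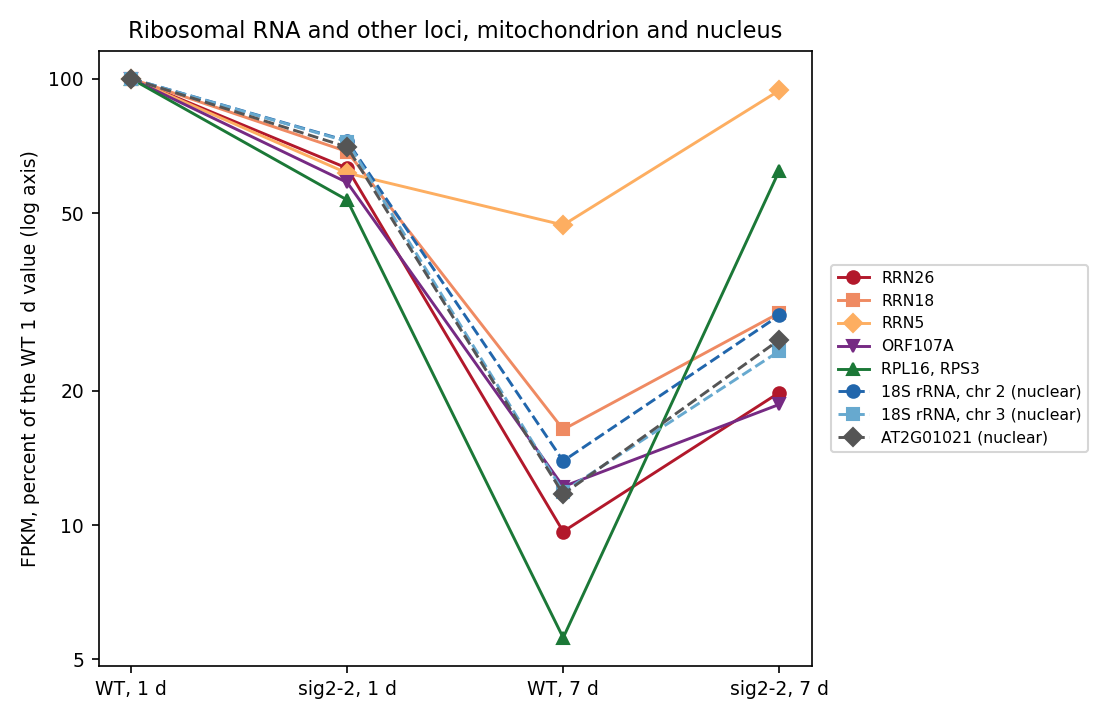
FPKM of ribosomal RNA loci, AT2G01021, *ORF107A* and *RPL16,RPS3* in the 4 conditions as percent of the WT value at 1 day (log axis), solid lines for mitochondrial and dashed lines for nuclear loci. The nuclear 18S loci, AT2G01021, *RRN26*, *RRN18* and *ORF107A* run near each other, whereas *RRN5* and *RPL16,RPS3* depart from them at 7 days.

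To compare genotypes at 1 day, differences were taken on the log2(FPKM + 1) scale, which understates those of low loci, and a locus was called at 2-fold or more on this scale. At 1 day, 23 of the 28 loci were lower in *sig2-2* and 5 higher, with a median difference of −0.49. The median was −0.0001 over the 21057 loci of all chromosomes at 1 FPKM or more in a condition. The median of the 28 kept its sign when conditions were centred or rescaled. With equal nuclear 18S rRNA it was −0.10, with 20 lower and 8 higher, against a median of 0.37 over all loci at that setting. Past 2-fold were 3 lower loci (*NAD1B*, *ATP9* and *ORF107D*) and 1 higher locus (*TRNC*). Over all 21057 loci, 1.16% were lower and 2.63% higher by this rule. *NAD1B*, a middle part of the trans-spliced gene for a membrane subunit of complex I, was at 6.76 FPKM in WT and 2.61 in *sig2-2*. *ATP9*, for the ring subunit of the ATP synthase, was at 1.69 in WT and 0.315 in *sig2-2*. *ORF107D* was at 1.01 in WT and listed at 0 in *sig2-2*. *ATP9* and *ORF107D* thus rest on low values, and the number of fragments behind them is unknown.

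*TRNC*, the locus of a cysteine tRNA, was at 40.5 FPKM in *sig2-2* at 1 day and listed at 0 in the other 3 conditions. The tables give it a span of 669 bases, with the same start and end as the open reading frame *ORF199*, which was at 0 in every condition. The other 19 tRNA loci, of 62 to 97 bases, were at 0 in every condition. A tRNA is shorter than most library fragments, which makes its FPKM hard to estimate. Of the nuclear copies, AT2G07756, which holds the words of *CCB452*, had a value of the same kind, at 111 FPKM in *sig2-2* at 7 days and at 0 elsewhere. AT2G07815 is listed with the same start and end and the same words, and its values are not given here.

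At 7 days the direction was the opposite. Of the 28 loci, 25 were higher in *sig2-2*, 1 was lower (*NAD2B*, at 0.124 FPKM in WT and 0.103 in *sig2-2*) and 2 were at 0 in both. The median difference was 0.65 against 0.0002 over all loci, and it was above 0 under every rescaling too. With equal nuclear 18S rRNA it was 0.06, with 15 loci higher and 11 lower, against a median of −1.0 over all loci at that setting. Past 2-fold were 7 higher and 0 lower loci. Over all loci, 4.67% were higher and 3.69% lower by this rule. The 7 were *RPL16,RPS3*, *NAD9*, *NAD5C*, *ORF240A*, *NAD3,ORF114,ORF118*, *NAD1B* and *RRN26*. From 1 day to 7 days, the *sig2-2* minus WT difference went up for 26 of the 28 loci, by a median of 1.17, against 0.0034 over all loci. For 22 of the 28, *sig2-2* was lower than WT at 1 day and higher at 7 days, a turn seen in 25.8% of all loci. With equal nuclear 18S rRNA the turn was seen in 10 of the 28. The share of all loci with this turn was not taken at that setting, so the 10 cannot be set against the 25.8%.

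**Figure D4:**
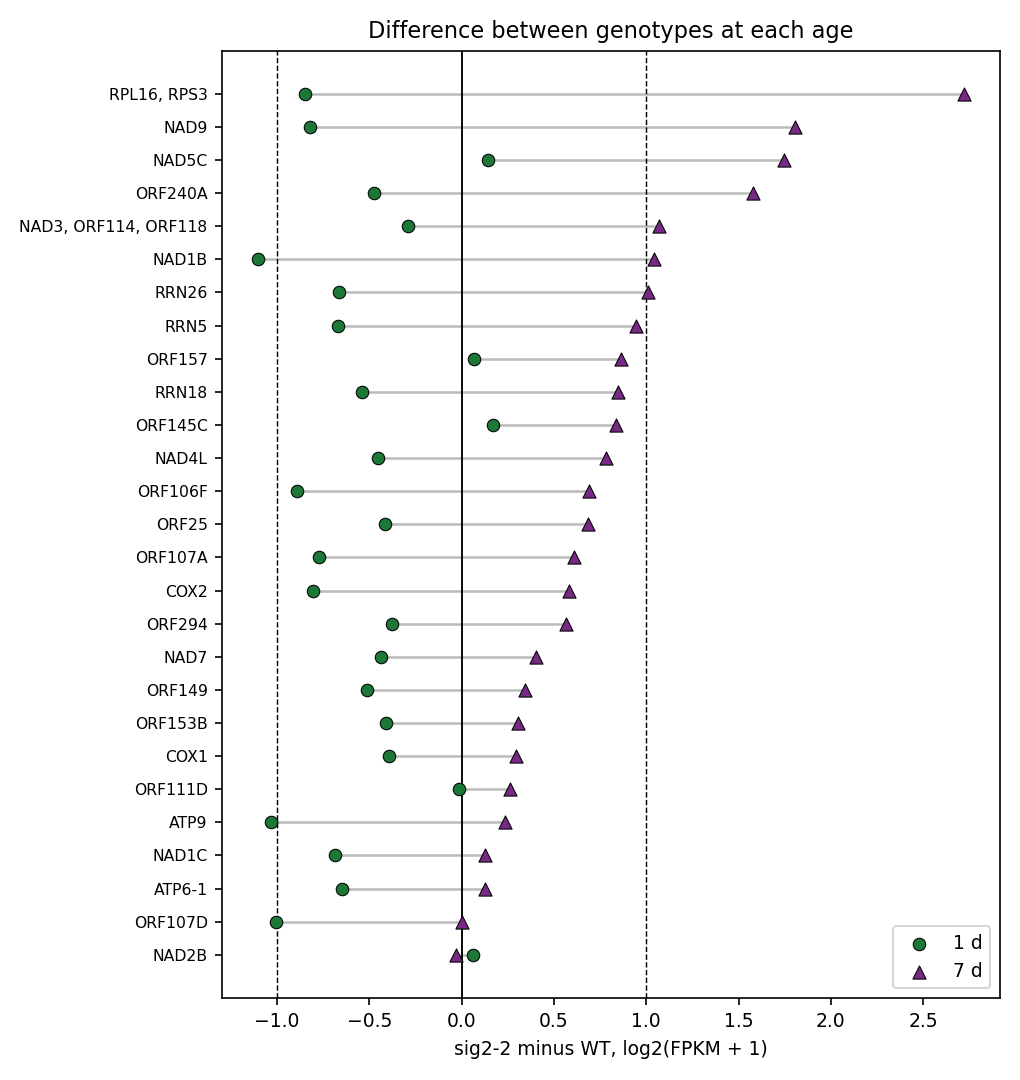
Difference between *sig2-2* and WT on the log2(FPKM + 1) scale at 1 day (circles) and 7 days (triangles) for 27 mitochondrial loci, *TRNC* left out for its single value above 0, with dashed lines at 2-fold. Nearly all circles lie left of 0 and nearly all triangles right of it, and *RPL16,RPS3*, *NAD9*, *NAD5C* and *ORF240A* lie farthest to the right.

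The loci farthest from the others at 7 days were neighbours. *RPL16,RPS3* (Mt:25076-28733, in the positions of the tables), which encodes a protein of each ribosomal subunit, was at 22.2 (WT) and 11.9 FPKM (*sig2-2*) at 1 day, then 1.24 and 13.8 at 7 days. *NAD9* (Mt:23663-24235), a complex I subunit of the arm that protrudes into the matrix, was at 11.1, 5.82, 0.725 and 5.03 in the same order. *NAD5C* (Mt:20571-22086), the last part of the trans-spliced gene for a proton-pumping subunit of complex I, was at 4.71, 5.31, 0.419 and 3.77. All 3 were lowest in WT at 7 days, while in *sig2-2* the values of the 2 ages lay within 1.41-fold of each other. As plain ratios, *sig2-2* exceeded WT at 7 days by 11.1-fold for *RPL16,RPS3*, 6.94-fold for *NAD9* and 8.99-fold for *NAD5C*, all 3 from WT values near or under 1 FPKM. *ORF240A* had the same course (3.86, 2.50, 0.0859 and 2.24 FPKM) from another part of the chromosome (Mt:203588-204310). It ends 29 bases before the lysine tRNA locus *TRNK.2*, and *RPL16,RPS3* ends 164 bases before *TRNK.1*, a lysine tRNA locus as well. These tRNA loci are listed at 0. How often other loci lie this near a tRNA locus was not counted, and whether the nearness bears on the values was not tested.

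The ratio to *RRN26* was highest in *sig2-2* at 7 days for *RPL16,RPS3*, *NAD9*, *NAD5C* and *ORF240A*. *RPL16,RPS3* was at 0.0671 (WT) and 0.0569 (*sig2-2*) of *RRN26* at 1 day, and at 0.0388 and 0.211 at 7 days. For *NAD9* the ratio was 0.0334, 0.0279, 0.0227 and 0.0768 in the same order. The ratio varied less for *ORF25* (*atp4*, for a stalk subunit of the ATP synthase) at 0.0190, 0.0214, 0.0179 and 0.0233, and for *COX1*, the catalytic subunit of cytochrome c oxidase, at 0.00897, 0.00968, 0.0148 and 0.0123. It varied more than for *NAD9* in *ATP9*, at 0.00511, 0.00151, 0.0246 and 0.0168, and in *RRN5*, at 0.0770, 0.0750, 0.374 and 0.366. Rescaled to equal nuclear 18S rRNA, a setting chosen after the data were seen, *RPL16,RPS3*, *NAD9*, *NAD5C* and *ORF240A* were among the 6 loci past 2-fold higher in *sig2-2* at 7 days, at 2.21, 1.46, 1.64 and 2.01 on the log2 scale, whereas *RRN26* was at −0.03 and *RRN18* at −0.19.

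Of the other respiratory loci, *NAD4L*, *COX1*, *COX2* and *ORF25* had smaller plain ratios between genotypes at 7 days than *NAD9* and *NAD5C*. *NAD4L*, a small membrane subunit of complex I, was at 13.4 and 9.52 FPKM at 1 day and 0.716 and 1.95 at 7 days, for WT and *sig2-2*. *COX1* was at 2.97 and 2.02 at 1 day and 0.473 and 0.805 at 7 days. *COX2*, the subunit that receives electrons from cytochrome c, was at 2.92 and 1.25 at 1 day and 0.322 and 0.982 at 7 days. In each of the 3 the genotypes had the order of the group, with WT higher at 1 day and *sig2-2* higher at 7 days. *ORF25* was at 6.27 and 4.46 at 1 day and 0.574 and 1.53 at 7 days. The remaining named loci, *NAD1C*, *NAD2B*, *NAD7* and *ATP6-1*, had a highest value between 1.02 and 2.07 FPKM. By group, the median difference between *sig2-2* and WT at 7 days was 0.91 for the 8 complex I loci, 0.94 for the 3 rRNA loci, 0.58 for the 10 open reading frames and 0.23 for the 3 ATP synthase loci, on the log2 scale.

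Open reading frames with a value tended to lie beside a known gene. The 10 at 1 FPKM or more were a median of 184.5 bases from the nearest locus of known function or rRNA, against 2779 bases for the 71 others, and 7 of the 10 but 20 of the 71 lay within 1500 bases. *ORF106F*, at 13.2, 6.66, 1.19 and 2.53 FPKM (WT then *sig2-2* at 1 day, then WT and *sig2-2* at 7 days), lies 113 bases from *NAD1B*. *ORF153B*, at 9.05, 6.56, 0.204 and 0.488, lies 155 bases from the *NAD3* locus. *ORF149*, at 9.34, 6.24, 0.874 and 1.38, lies 186 bases from *NAD5B*, a short exon of *nad5* listed at 0 in every condition, and 872 bases from *NAD4L*. *ORF199* and *NAD5B* are named here after their values were seen. Whether these values are transcripts of the frames or longer transcripts of the neighbouring gene was not tested.

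The comparison of ages asked how the mitochondrial values developed in each genotype. In WT, 27 of the 28 loci were lower at 7 days than at 1 day and 1 was at 0 at both. The median difference was −1.81 against −0.08 over all loci, and its sign held under centring and every rescaling. With equal nuclear 18S rRNA, 20 were lower and 7 higher, with a median of −0.29 against 2.57 over all loci. Past 2-fold were 20 lower and 0 higher loci, where 13.5% of all loci were lower and 18.9% higher. Most of the 28 passed the minimum through some conditions only, mostly at 1 day, so such a fall is partly built into the choice. The largest differences on the log2 scale were those of *RPL16,RPS3* (−3.37), *RRN26* (−3.33) and *NAD4L* (−3.07). In *sig2-2*, 24 were lower, 3 higher and 1 at 0 at both ages, with a median of −0.47. When the conditions were set to equal nuclear 18S rRNA, the median turned to 0.20, with 18 higher and 9 lower. At that setting the median over all loci was 1.22. Past 2-fold were 10 lower and 0 higher loci, against 15.1% lower and 19.7% higher over all loci. The 3 that were higher at 7 days in *sig2-2* were *ATP9*, *RRN5* and *RPL16,RPS3*, by 0.68, 0.58 and 0.20 on the log2 scale. The summed FPKM of all mitochondrial loci was 8.0-fold lower at 7 days in WT and 2.77-fold lower in *sig2-2*. The 4 comparisons share conditions, so that their directions are not independent of each other.

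The medians of the nuclear copies on chromosome 2 had the same directions. These copies were matched by shared sequence, and reads of both cannot be told apart. They are thus not a group independent of the mitochondrial loci. Of 25 such loci matched to a mitochondrial gene, 22 reached 1 FPKM. Their median difference between *sig2-2* and WT was −0.48 at 1 day and 0.67 at 7 days, against −0.0001 and 0.0002 over all loci. At 1 day 15 were lower and 6 higher in *sig2-2*, and at 7 days 22 of 22 were higher. With age they had a median of −1.77 in WT and −0.74 in *sig2-2*.

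The nuclear genes for partners of these products did otherwise. Of 36 nuclear genes for subunits of complexes I, III and IV and of the ATP synthase, 33 were found and reached 1 FPKM. At 1 day 0 of 33 were past 2-fold (over all loci 2.63% higher and 1.16% lower), with a median of −0.06. At 7 days again 0 were past 2-fold (over all loci 4.67% higher and 3.69% lower). Of the 33, 30 were lower in *sig2-2* at 7 days, with a median of −0.29. The median was 0.65 for the mitochondrial loci and 0.0002 over all loci. For complex I, which holds subunits of both genomes, the nuclear median at 7 days was −0.33 over 11 genes and the mitochondrial one 0.91 over 8 loci. *CI51*, the flavoprotein subunit that takes electrons from NADH, was at 256 (WT) and 253 FPKM (*sig2-2*) at 1 day, then 173 and 147 at 7 days. With age, 6 of the 33 were lower past 2-fold in WT and 17 in *sig2-2* (over all loci 13.5% and 15.1%), with medians of −0.66 and −1.0, so that here the fall was greater in *sig2-2* while for the mitochondrial loci it was greater in WT. This contrast was not tested.

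**Figure D5:**
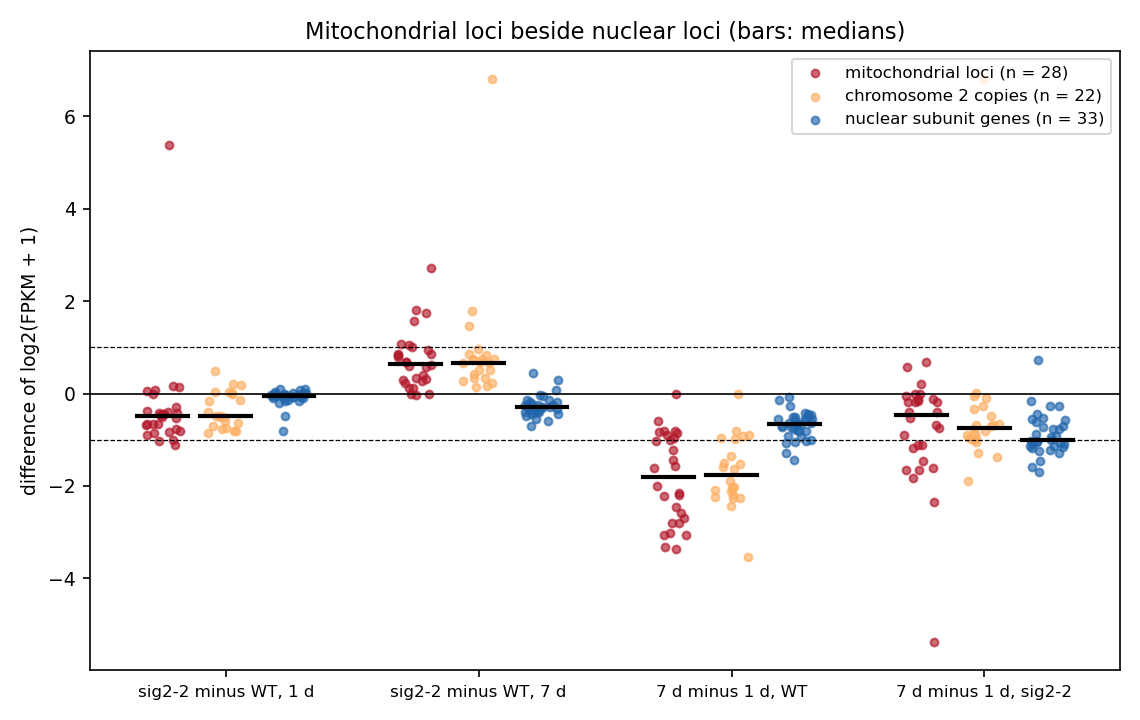
Differences of log2(FPKM + 1) in the 4 comparisons for the 28 mitochondrial loci, the 22 chromosome 2 copies and the 33 nuclear subunit genes at 1 FPKM or more, each point 1 locus, bars at the medians and dashed lines at 2-fold. At 7 days the medians between *sig2-2* and WT were 0.65, 0.67 and −0.29 for the 3 groups. The chromosome 2 copies share sequence with mitochondrial genes and are not independent of them.

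Of 8 nuclear genes for the expression of the mitochondrial genome, 0 were past 2-fold between genotypes at either age. Over all loci, 2.63% were higher and 1.16% lower at 1 day, and 4.67% and 3.69% at 7 days, so 0 of 8 is near these shares. All 8 were higher in *sig2-2* at 7 days, the least by 0.004, with a median of 0.23 against 0.0002 over all loci. AT1G68990, the polymerase RPOTm, was at 18.2 and 18.1 FPKM at 1 day and 12.1 and 16.0 at 7 days, for WT and *sig2-2*. AT5G15700, the polymerase RPOTmp, which serves both organelles, was at 10.8 and 10.3 at 1 day and 4.46 and 6.08 at 7 days. Both polymerase genes had their lowest value in WT at 7 days. AT5G14580, the mitochondrial polynucleotide phosphorylase, which in Arabidopsis degrades polyadenylated mitochondrial RNA, was the gene with the greatest change with age, at 30.4 and 31.5 at 1 day and 5.65 and 6.33 at 7 days.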

How the data were processed

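RNA of entire seedlings was prepared with an mRNA kit, and the authors made FPKM values with Cufflinks and Cuffdiff (named in the submitters' processing notes without version), deposited as 1 value per locus and condition for 3 replicates combined. The aligner, annotation and genome build are not given in the sources used here. A table of nuclear loci also holds the authors' ratios, p-values and q-values, which were not used. The 4 tables of single conditions were joined by locus. Differences were taken on log2(FPKM + 1) and called at 2-fold, with no test, since no replicate values were at hand; the tests planned for replicate columns were not run. Depth is unknown: among low values of loci of equal span, between 9.16% and 12.8% were whole multiples (within 0.05) of the lowest, so that no reads could be recovered.

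Words of 55 nt were counted on both strands of TAIR10.1 with Python 3.11.15, pandas 2.3.3 and numpy 2.4.6, and figures used matplotlib 3.10.9. Nuclear genes were placed by identifier and position; 1 planned complex I gene was left out, since its annotation names no subunit role. Promoter windows and proteins were not used here. Members and lists were chosen with earlier results of these data known. Named are all loci of known function or rRNA at 1 FPKM or more, the highest tRNA, and the open reading frames with the 5 highest values or, per comparison, the 3 largest rises and falls. The calls were tested on simulated data.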

Additional observations from a re-analysis of the deposited data

Results flagged for a closer look

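The sign of the genotype difference depended on age. Over the 28 mitochondrial loci, the median *sig2-2* minus WT difference was −0.49 at 1 day and 0.65 at 7 days on the log2(FPKM + 1) scale. With equal nuclear 18S rRNA, a setting added after seeing the data, it was only −0.10 and 0.06. The medians over all loci at that setting were 0.37 and −1.0. The 2 ages thus moved in opposite directions, and the difference between them was not tested, since each condition has 1 combined value.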

How the results depend on the processing

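The medians between genotypes and between ages kept their direction under a pseudocount of 0.1, a minimum of 5 FPKM, centring, both rescalings of the summed FPKM, and restriction to known proteins or unique sequence. With a pseudocount of 0.1, the medians became 1.03 for *sig2-2* against WT at 7 days, −3.16 and −0.80 with age in WT and *sig2-2*, and 1.91 for the difference between ages, and the counts 6 lower at 1 day, 15 higher at 7 days and 1 higher with age in *sig2-2*. Without a minimum, where most loci are at 0, all 5 medians were 0.00. At 5 FPKM or more, 1 locus was lower at 1 day, and the median with age in *sig2-2* was −1.19. Equal summed FPKM left 0 loci lower at 1 day and moved the median of all loci by 0.123 at 1 day and by 0.436 and 0.201 with age in WT and *sig2-2*. Known protein-coding genes gave 0 higher at 1 day, 10 lower with age in WT, and 3 lower with a median of −0.29 in *sig2-2*. Loci with 90% or more unique words gave 0 higher and 0 lower at 1 day, 3 higher at 7 days, 8 lower with age in WT, and 4 lower with a median of −0.93 in *sig2-2*. A threshold of 1.5-fold gave 12 lower at 1 day, 15 higher at 7 days and 1 higher with age in *sig2-2*. Equal nuclear 18S rRNA, added after seeing the data, gave medians of −0.10 at 1 day, 0.06 at 7 days, −0.29 with age in WT, 0.20 with age in *sig2-2* (reversed) and 0.28 for the difference between ages, with 0 lower at 1 day, 3 higher and 4 lower with age in WT, and 5 higher and 2 lower in *sig2-2*. This setting moved the median of all loci by 0.369 at 1 day, −1.0 at 7 days, and 2.65 and 1.27 with age in WT and *sig2-2*. The cause was not tested. The share of the summed FPKM moved by less than 1.5 times under each alternative.

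No paired analysis was possible because each condition has 1 combined value, and leaving out a replicate could not be run for the same reason. Depth is unknown, so values near 0 carry no known precision, and the ratios of loci under 1 FPKM are the least certain.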
